A study of Canis lupus familiaris with 12 samples.

Results

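The comparison described here set canine peripheral blood mononuclear cells (PBMCs) that had received concanavalin A (ConA) together with 5-aminolevulinic acid (ALA) against cells that had received neither. Its members were chosen by title, and they were 6 of the 12 libraries of the series, 3 per group. The treated cells had ConA at 0.5 µg/ml and ALA at 1.0 mM for 24 h, and the untreated cells had neither reagent. The other libraries, 3 with ConA alone and 3 with ALA alone at the same concentrations and time, entered the shared model and are compared where stated. Blood was from healthy male beagles, donor dogs free of specific pathogens, and the PBMCs were separated by density gradient and cultured in RPMI1640 medium with serum and 2-mercaptoethanol. The ages and the number of the dogs are not stated in the sources used here. Libraries carry numbers 1 to 3 in their titles, and each number occurs once in each group. The titles do not say whether a number is an animal. The p-values therefore speak only of these libraries. In the main fit differences between numbers are taken out, so its p-values measure the variation that is left among the 12 libraries. That variation may be technical.

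ConA is a plant lectin that binds glycans on the T cell receptor complex and other surface proteins and drives T cells into the cell cycle, with help from accessory cells such as monocytes. Within hours activated T cells make cytokines and the high-affinity interleukin-2 receptor, and they then raise ribosome production, nucleotide synthesis and glycolysis before dividing. ALA is the first committed intermediate of heme synthesis. Supplied from outside, it bypasses ALAS1, the enzyme that normally limits the pathway, and is turned into porphyrins and heme, which heme oxygenase 1 (HMOX1) breaks down to iron, carbon monoxide and biliverdin.

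The 6 libraries held 13390692 to 19355701 exon reads, and 11856 to 12810 genes had at least 10 reads. Libraries numbered 1 stood apart in both groups, with 3.98% and 4.82% of exon reads from the mitochondrial genome against 12.7 to 17.9% in the other 4. The mitochondrial share was higher in the treated library of every number, by 0.840, 5.15 and 3.13 percentage points (exact permutation test with signs flipped within numbers, 2-sided, p = 0.25, the smallest that 3 pairs allow, and p = 0.5 with libraries permuted without regard to number). The 100 most abundant genes also took a larger share of reads in 3 of 3 treated libraries. Lower in 3 of 3 were the intron share of gene reads, the junction share of exon reads and the count of genes reaching 10 reads. The unique share of exon reads was lower in 3 of 3 too, at means of 94.1% treated and 94.7% untreated, and was the measure of the 7 compared whose groups did not overlap. Whether any of these moved the gene results below was not tested. Levels are exon read counts scaled to a common library size (CPM, with library sizes adjusted by the trimmed mean of M values). Values are listed in the order of numbers 1, 2 and 3, and a fold change is log2 of treated over untreated with its standard error. A mean is given with the SD of 3 libraries. Unless another test is named, adjusted p-values come from edgeR's quasi-likelihood test with the number as a replicate block and Benjamini-Hochberg adjustment over all 13358 genes tested.

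Treatment with ConA and ALA changed the level of 4770 of the 13358 genes, 35.7% of those tested. Of these, 2402 genes rose (18.0%) and 2368 fell (17.7%), and the median log2 fold change over all genes was −0.06. At least 2-fold changes made up 1003 of the rises and 1049 of the falls, and at least 4-fold changes 237 and 273. In 4272 genes (32.0%) the 3 treated and 3 untreated libraries did not overlap in CPM. A fit with no replicate block called 1512 genes (11.3%), 870 up (6.51%) and 642 down (4.81%). Counts of called list members below stand beside these shares of all genes, 35.7% with the block and 11.3% without it. Without the libraries numbered 1 the blocked count was 2893, and without those numbered 2 it was 3003.

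**Figure D1:**
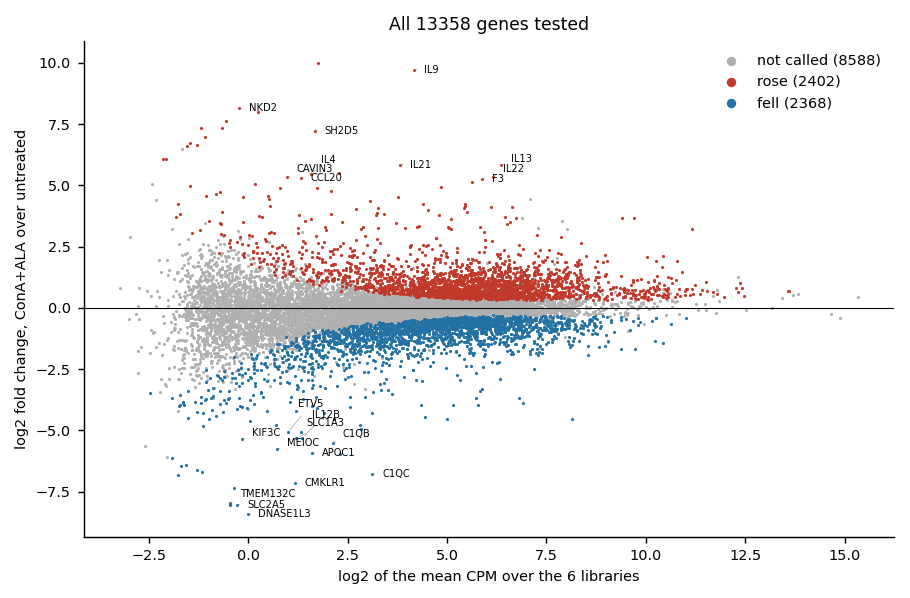
Each point is 1 of the 13358 genes tested, with the log2 of its mean CPM over the 6 libraries on the x axis and the log2 fold change of ConA with ALA over untreated cells on the y axis. Red points are the 2402 genes that rose, blue points the 2368 that fell and grey points those not called. Labels mark those of the 12 largest rises and falls that the text describes, and fitted folds of genes with almost no reads in a group depend on the prior count.

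Of the 12 largest rises, 5 were T cell cytokines (IL9, IL21, IL13, IL4 and IL22) and 1 was a chemokine (CCL20), and the values of IL21, IL13, IL4, IL22 and CCL20 stand with their lists. IL9, a growth factor for mast cells and T cells (chromosome 11, 23811117 to 23814079 in CanFam3.1), had 2 reads in the untreated libraries and 1533 in the treated ones, a ratio of 887 (95% exact counting interval 245 to 7330.2). SH2D5, an adaptor protein gene, had 2 reads against 301, a ratio of 174 (95% exact counting interval 47.8 to 1445). NKD2, which codes for an antagonist of Wnt signalling, was at least 25.5-fold higher when set against a floor of 3 reads over the group, with 66 reads against 0. CAVIN3, a caveola protein gene, stood at 0, 0.129 and 0.175 CPM in the untreated libraries and 4.62, 3.14 and 3.68 CPM in the treated ones (log2 fold change 5.32 ± 0.78, adjusted p = 9.5e-05). F3, tissue factor, which starts blood coagulation, was at 0.720, 2.72 and 5.87 CPM in the untreated libraries and 22.1, 103 and 218 CPM in the treated ones (5.27 ± 0.95, adjusted p = 0.006). The level of F3 differed widely between numbers in both groups, and for CAVIN3 and F3 all treated libraries lay above the untreated ones. Taking out the replicate block moved the adjusted p past 0.05 for F3 (adjusted p = 0.059). Leaving out libraries ended the call of F3 without all libraries numbered 1 (adjusted p = 0.086).

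Among the largest falls, DNASE1L3, a nuclease of macrophages and dendritic cells, had 115 reads in untreated cells and 0 in treated ones, at least 33.1-fold lower. SLC2A5, a fructose transporter, and TMEM132C were likewise without a read in the treated group, at least 26.5-fold and 24.8-fold lower. CMKLR1, the receptor for chemerin on macrophages and plasmacytoid dendritic cells, had 269 reads against 2 after treatment, an untreated-to-treated ratio of 116 (95% exact counting interval 31.9 to 965). APOC1, an apolipoprotein gene that macrophages express, was at 7.20, 7.63 and 2.97 CPM in the untreated libraries and 0.173, 0.150 and 0 CPM in the treated ones (−5.92 ± 0.91, adjusted p = 0.00016). On total gene reads, which add introns to exons, its fold change was 0.46 with an adjusted p of 0.032, opposite in direction. SLC1A3, a glutamate transporter, was at 1.71, 5.496 and 6.40 CPM in the untreated libraries and 0.173, 0.150 and 0 CPM in the treated ones (−5.32 ± 0.87, adjusted p = 0.0003). In exon reads of both, every treated library lay below every untreated one. ETV5, an ETS-family transcription factor, also fell (−5.08 ± 1.04, adjusted p = 0.0025). MEIOC and KIF3C, genes known from meiosis and from axonal transport, had 3 and 2 reads left in the treated group against 176 and 103 in the untreated one. Among the settings that keep all libraries and the block, the threshold was missed by KIF3C on total gene reads (adjusted p = 0.12).

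Genes of T cell activation rose as a group. Of 23 tested, 19 rose and 0 fell, with a median log2 fold change of 1.81, and 14 rose with no replicate block. TNFRSF9, the costimulatory receptor 4-1BB, was at 1.76, 0.841 and 0.640 CPM in the untreated libraries and 47.4, 16.8 and 13.8 CPM in the treated ones (4.54 ± 0.30, adjusted p = 3e-07). IL2RA, the chain that gives the interleukin-2 receptor its high affinity, was at 11.7, 12.5 and 14.4 CPM in the untreated libraries and 149.8, 101 and 78.6 CPM in the treated ones (3.08 ± 0.36, adjusted p = 0.00024). CD69, an early activation marker, was at 29.6, 67.6 and 22.9 CPM in the untreated libraries and 135, 154 and 121 CPM in the treated ones (1.90 ± 0.20, adjusted p = 8.8e-06). In each of these the lowest treated library exceeded the highest untreated one. TFRC, the transferrin receptor through which dividing cells take up iron, was at 28.8, 10.2 and 16.8 CPM in the untreated libraries and 116, 61.8 and 43.0 CPM in the treated ones (2.01 ± 0.30, adjusted p = 0.00063). The costimulator ICOS, the orphan nuclear receptor NR4A3 and the transcription factors EGR2 and BATF3 also rose, with log2 fold changes of 2.27 ± 0.18, 2.58 ± 0.19, 1.74 ± 0.17 and 3.49 ± 0.32.

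T cell cytokines showed the largest median change of the 49 lists. Of 18 tested, 13 rose and 1 fell, the median log2 fold change was 3.87, and 11 rose with no replicate block. IFNG, the type II interferon that activates macrophages, was at 4.28, 0.388 and 1.57 CPM in the untreated libraries and 62.4, 42.2 and 61.9 CPM in the treated ones (4.94 ± 0.53, adjusted p = 0.00024). IL2, the T cell growth factor, was at 5.99, 1.81 and 5.47 CPM in the untreated libraries and 32.6, 64.7 and 96.3 CPM in the treated ones (3.63 ± 0.57, adjusted p = 0.0018). LTA, lymphotoxin alpha, was at 8.55, 10.2 and 14.8 CPM in the untreated libraries and 178, 198 and 186 CPM in the treated ones (4.12 ± 0.21, adjusted p = 9.2e-08). The 3 treated libraries were close together for LTA and spread more widely for IL2, and neither gene overlapped between groups. TNF, which neighbours LTA on chromosome 12, was at 5.31, 5.75 and 8.09 CPM in the untreated libraries and 48.7, 22.4 and 46.7 CPM in the treated ones (2.57 ± 0.24, adjusted p = 1.9e-06). Cytokines of the type 2 helper response rose too. IL13, which acts on epithelium and macrophages, was at 1.44, 2.78 and 6.11 CPM in the untreated libraries and 114, 181 and 191 CPM in the treated ones (5.82 ± 0.77, adjusted p = 0.0014). IL4, the cytokine that steers T cells to that response, was at 0.0900, 0.0647 and 0.233 CPM in the untreated libraries and 4.10, 6.88 and 6.53 CPM in the treated ones (5.45 ± 0.79, adjusted p = 8.7e-05). IL21, a helper cytokine for B cells, was at 0.720, 0.129 and 0.582 CPM in the untreated libraries and 34.4, 26.8 and 22.6 CPM in the treated ones (5.84 ± 0.56, adjusted p = 1.9e-05). For these 3 genes every treated library lay above every untreated one. IL22, a cytokine directed at epithelium, was at 0, 1.03 and 35.2 CPM in the untreated libraries and 84.6, 123 and 183 CPM in the treated ones (5.35 ± 1.57, adjusted p = 0.04). IL10, an anti-inflammatory cytokine, was at 7.74, 13.4 and 9.31 CPM in the untreated libraries and 7.55, 10.99 and 6.34 CPM in the treated ones, and its groups overlapped (−0.34 ± 0.34, adjusted p = 0.48). Per length of transcript, the mean level in treated cells was 164 TPM (the deposited abundance scale) for LTA, 170.0 for IL13, 63.3 for IFNG and 13.7 for IL4. Fitted with no replicate block, IL22 (adjusted p = 0.25) had an adjusted p above 0.05. IL2 lost its call without all libraries numbered 3 (adjusted p = 0.0503). IL22 lost it without untreated library 1 (adjusted p = 0.11), treated library 1 (0.11), untreated library 2 (0.14), treated library 2 (0.11), all libraries numbered 1 (0.22) and all libraries numbered 2 (0.29). With all libraries and the block kept, IL22 in the fit to the compared groups (adjusted p = 0.18) and IL22 with no filter on low counts (adjusted p = 0.062) missed 0.05.

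Receptors and brakes of the same response changed in part. Of 19 cytokine receptor and feedback genes tested, 9 rose and 2 fell (4 and 1 with no replicate block), a called share of 57.9% against 35.7% of all genes. IL21R, the receptor for interleukin-21, rose from a mean of 76.6 ± 8.12 to 188 ± 23.8 CPM (1.29 ± 0.13, adjusted p = 4.2e-06). IL4R, the receptor for interleukins 4 and 13, rose from a mean of 95.2 ± 25.7 to 185 ± 40.4 CPM (0.97 ± 0.14, adjusted p = 7.8e-05). CISH, an inhibitor of cytokine signalling that cytokines induce, rose from a mean of 25.8 ± 12.9 to 73.9 ± 39.0 CPM (1.55 ± 0.22, adjusted p = 0.00013). Of 14 genes of inhibitory receptors and regulatory T cells, 6 rose and 1 fell (4 and 1 with no replicate block). CTLA4, a receptor that restrains costimulation, was at 52.3, 69.8 and 43.3 CPM in the untreated libraries and 180.2, 189.9 and 146 CPM in the treated ones (1.66 ± 0.13, adjusted p = 5.9e-07). PDCD1 and LAG3, which code for the inhibitory receptors PD-1 and LAG-3, rose by log2 fold changes of 2.01 ± 0.43 (adjusted p = 0.0065) and 2.14 ± 0.44 (adjusted p = 0.0063). LGALS9, galectin 9, a ligand of the inhibitory receptor TIM-3, fell (−1.02 ± 0.18, adjusted p = 0.00045). Over the 9 leave-out fits the cytokine receptors and feedback list had 5 to 10 rises (fewest without all libraries numbered 2) and the inhibitory receptors and regulatory T cells list had 3 to 6 rises (fewest without treated library 2 and all libraries numbered 1). The fit with no replicate block did not call CISH (adjusted p = 0.077). PDCD1 lost its call without all libraries numbered 1 (adjusted p = 0.087). LAG3 lost it without all libraries numbered 3 (adjusted p = 0.076).

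Genes of naive and recirculating T cells fell. Of 15 tested, 10 fell and 1 rose, with a median log2 fold change of −1.01, and 6 fell with no replicate block. TCF7, the transcription factor TCF-1 of naive and memory T cells, was at 271, 106 and 101 CPM in the untreated libraries and 67.2, 49.1 and 42.1 CPM in the treated ones (−1.49 ± 0.17, adjusted p = 1.2e-05). S1PR1, the receptor by which lymphocytes leave lymph nodes, was at 275, 339.7 and 242 CPM in the untreated libraries and 91.4, 134 and 136 CPM in the treated ones (−1.26 ± 0.16, adjusted p = 2.6e-05). KLF3 and LEF1, which code for transcription factors of resting lymphocytes, fell, with log2 fold changes of −1.41 ± 0.21 and −1.01 ± 0.13. Of 15 factors that set helper lineages, 3 rose and 4 fell (1 and 1 with no replicate block), a called share of 46.7%. This list also holds TCF7 and LEF1, so their falls are counted in both lists. Among the 15 factors TBX21, the factor of the type 1 response, rose from a mean of 44.3 ± 20.4 to 108 ± 39.7 CPM (1.28 ± 0.19, adjusted p = 0.00018). Of 9 cytotoxic effector genes, 4 rose and 1 fell (1 and 1 with no replicate block), a called share of 55.6%. The granzymes moved in different directions. GZMB, the main apoptosis-inducing granzyme, was at 52.1, 22.2 and 26.3 CPM in the untreated libraries and 465, 209 and 147 CPM in the treated ones (2.97 ± 0.21, adjusted p = 6.1e-07). GZMK, a granzyme of memory T cells, was at 135, 51.8 and 48.5 CPM in the untreated libraries and 20.7, 20.6 and 19.8 CPM in the treated ones (−1.84 ± 0.28, adjusted p = 0.00046). Dropping libraries in turn, the cytotoxic effectors list had 2 to 4 rises (fewest without untreated library 2 and all libraries numbered 2). Without pairing by a replicate block, the call was lost for LEF1 (adjusted p = 0.056).

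**Figure D2:**
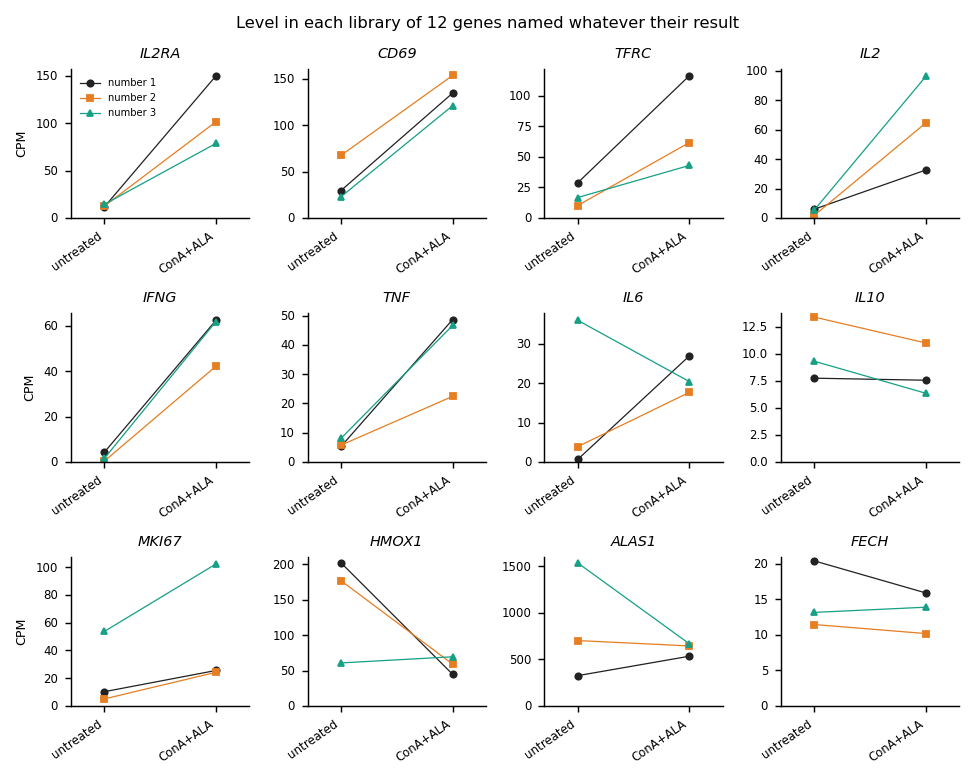
Level in CPM (y axis, from 0, a scale per panel) of 12 genes in the untreated and ConA with ALA libraries, with a line joining the libraries of each number. All lines rise for IL2RA, CD69, TFRC, IL2, IFNG, TNF and MKI67, while the lines of IL6, HMOX1, ALAS1 and FECH differ in direction between numbers and the IL10 lines fall within the range of the untreated libraries or just below it.

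Chemokines draw leukocytes into tissue. Of 15 tested, 8 rose and 0 fell (7 and 0 with no replicate block), a called share of 53.3%. CCL3 and CCL4, chemokines whose annotated spans overlap on chromosome 9, were among them, and all exon reads of both were deposited as unique. CCL3 was at 40.0, 67.1 and 60.5 CPM in the untreated libraries and 453, 387 and 404 CPM in the treated ones (2.89 ± 0.25, adjusted p = 7.9e-06). CCL4 was at 46.9, 53.7 and 52.8 CPM in the untreated libraries and 293, 236 and 207 CPM in the treated ones (2.23 ± 0.16, adjusted p = 3e-07). Neither gene overlapped between groups. CCL20, the ligand of CCR6, was at 0.0900, 0 and 0.291 CPM in the untreated libraries and 4.88, 5.68 and 4.04 CPM in the treated ones (5.28 ± 0.79, adjusted p = 0.00012). CXCL8, interleukin-8, the chief attractant of neutrophils, had one of the largest gains in CPM of any gene, at 179, 442 and 806 CPM in the untreated libraries and 4903, 2807 and 4629 CPM in the treated ones (3.22 ± 0.73, adjusted p = 0.015). Its untreated level varied more between numbers than that of CCL3 or CCL4, and every treated library lay above the untreated ones. Of 12 chemokine receptors tested, 6 fell and 1 rose, a called share of 58.3%, and 1 fell with no replicate block. CXCR3, a receptor of effector T cells, fell from a mean of 10.6 ± 5.87 to 2.96 ± 1.498 CPM (−1.79 ± 0.33, adjusted p = 0.0007). Of 18 inflammatory mediators, 6 rose and 2 fell (2 and 1 with no replicate block), a called share of 44.4% against 35.7% of all genes. TNFAIP6, a hyaluronan-binding protein that inflammation induces, was at 1.08, 0.905 and 3.72 CPM in the untreated libraries and 18.9, 7.85 and 13.6 CPM in the treated ones (2.91 ± 0.47, adjusted p = 0.00046). IL12A and IL12B code for the subunits of interleukin-12 and moved in opposite directions. IL12A was at 6.93, 15.4 and 10.6 CPM in the untreated libraries and 20.3, 49.8 and 50.8 CPM in the treated ones (1.82 ± 0.19, adjusted p = 6e-06) and IL12B at 2.57, 10.99 and 1.40 CPM in the untreated libraries and 0, 0 and 0.368 CPM in the treated ones (−5.32 ± 1.47, adjusted p = 0.017). IL6, a cytokine of the acute phase, was at 0.630, 3.88 and 35.9 CPM in the untreated libraries and 26.9, 17.6 and 20.4 CPM in the treated ones and was not called (1.63 ± 1.05, adjusted p = 0.28). When single libraries or numbers were dropped, the chemokine receptors list had 2 to 5 falls (fewest without all libraries numbered 1 and all libraries numbered 2) and the inflammatory mediators list had 2 to 10 rises (fewest without treated library 2 and all libraries numbered 1) and 1 to 2 falls. CXCL8 lost its call without all libraries numbered 1 (adjusted p = 0.14) and all libraries numbered 2 (0.075). IL12B lost it without treated library 1 (adjusted p = 0.092), untreated library 2 (0.064), treated library 2 (0.096), all libraries numbered 1 (0.13) and all libraries numbered 2 (0.19). With all libraries and the block kept, IL12B with no filter on low counts (adjusted p = 0.052), IL12B by DESeq2 (adjusted p = 0.062) and CXCL8 in the fit to the compared groups (adjusted p = 0.068) missed 0.05.

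Genes of DNA replication and mitosis rose. Of 33 S phase genes tested, 27 rose and 0 fell, with a median log2 fold change of 1.55, and 18 rose with no replicate block. The G2 and M phase list had 29 tested, of which 19 rose and 1 fell, with a median of 1.46, and 6 rose with no replicate block. MCM6, a subunit of the replicative helicase, was at 64.6, 87.7 and 99.0 CPM in the untreated libraries and 331, 301 and 305 CPM in the treated ones (1.92 ± 0.15, adjusted p = 6e-07). CLSPN, claspin, a fork protein, was at 1.17, 1.29 and 3.43 CPM in the untreated libraries and 15.5, 16.2 and 20.3 CPM in the treated ones (3.27 ± 0.30, adjusted p = 2.1e-06). CHAF1A, of the chromatin assembly factor, was at 12.3, 27.7 and 26.2 CPM in the untreated libraries and 53.2, 111 and 89.0 CPM in the treated ones (1.96 ± 0.16, adjusted p = 6.6e-07). TYMS, thymidylate synthase, which the list of serine and one-carbon enzymes also holds, rose by 1.55 ± 0.16. Groups did not overlap for MCM6, CLSPN or CHAF1A. CCNB2, cyclin B2, was at 0.360, 0 and 1.05 CPM in the untreated libraries and 3.80, 3.51 and 7.44 CPM in the treated ones (3.56 ± 0.56, adjusted p = 0.00017), and TOP2A, the topoisomerase that untangles replicated chromosomes, was at 6.12, 10.99 and 18.1 CPM in the untreated libraries and 39.3, 48.0 and 66.7 CPM in the treated ones (2.23 ± 0.29, adjusted p = 0.00018). MKI67, the proliferation marker Ki-67, was at 10.3, 5.04 and 53.7 CPM in the untreated libraries and 25.5, 24.2 and 102 CPM in the treated ones (1.35 ± 0.43, adjusted p = 0.041). Untreated library 3 was well above untreated 1 and 2 and above treated 1 and 2, so the groups overlapped. Of 15 genes of cell cycle entry and its inhibitors, 6 rose and 3 fell (2 and 3 with no replicate block), a called share of 60.0%. The cyclin-dependent kinases CDK4 and CDK6 rose by 1.70 ± 0.17 and 1.79 ± 0.20, and CDKN2D, which inhibits both, fell (−1.65 ± 0.23, adjusted p = 6.2e-05). CDC25B, a phosphatase that activates mitotic kinase, fell (−1.27 ± 0.20, adjusted p = 0.00024). In the 9 fits that left out libraries, the cell cycle entry and inhibitors list had 3 to 5 rises (fewest without treated library 3 and all libraries numbered 2). Calls lost with no replicate block were those of MKI67 (adjusted p = 0.47). The threshold was missed by MKI67 without untreated library 1 (adjusted p = 0.13), treated library 1 (0.12), treated library 2 (0.086), treated library 3 (0.11), all libraries numbered 1 (0.22) and all libraries numbered 2 (0.051). Among the settings that keep all libraries and the block, the threshold was missed by MKI67 with no filter on low counts (adjusted p = 0.1).

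Every ribosome biogenesis gene tested rose, 21 of 21, with a median log2 fold change of 1.503, and 17 rose with no replicate block. FBL, the fibrillarin methyltransferase of ribosomal RNA, was at 87.8, 95.2 and 94.5 CPM in the untreated libraries and 339.8, 379 and 309 CPM in the treated ones (1.88 ± 0.14, adjusted p = 4.7e-07). RRP12, an export factor for pre-ribosomes, was at 29.2, 27.3 and 28.4 CPM in the untreated libraries and 116, 103 and 93.7 CPM in the treated ones (1.87 ± 0.14, adjusted p = 5.1e-07). NOP58, of the box C/D particles, rose by 2.14 ± 0.17. In each the treated libraries all lay above the untreated ones. Nucleotide and polyamine enzymes followed, with 11 of 14 up and 1 down (7 and 0 with no replicate block). NME1, a nucleoside diphosphate kinase, was at 75.9, 84.1 and 115 CPM in the untreated libraries and 574, 619 and 521 CPM in the treated ones (2.66 ± 0.19, adjusted p = 5e-07). IMPDH2, which commits purines to guanine nucleotides, rose from a mean of 79.8 ± 8.43 to 234 ± 66.2 CPM (1.52 ± 0.16, adjusted p = 6.5e-06). Of 15 serine and one-carbon enzymes, 8 rose and 3 fell (5 and 1 with no replicate block). SHMT2, the mitochondrial enzyme that takes a carbon from serine, was at 43.2, 74.7 and 71.6 CPM in the untreated libraries and 233, 380.3 and 337 CPM in the treated ones (2.34 ± 0.18, adjusted p = 4.7e-07). MTHFD1L, which releases formate from mitochondria, was at 31.5, 29.0 and 32.7 CPM in the untreated libraries and 144, 126 and 118 CPM in the treated ones (2.05 ± 0.14, adjusted p = 3e-07). Of 14 amino acid transporters, 7 rose and 3 fell (3 and 1 with no replicate block), a called share of 71.4%. The glutamine carriers SLC1A5 and SLC38A5 rose by 1.56 ± 0.20 and 1.70 ± 0.23, and SLC7A6, an exchanger of cationic and neutral amino acids, fell (−1.31 ± 0.24, adjusted p = 0.00056). Over the 9 leave-out fits the amino acid transporters list had 3 to 7 rises (fewest without all libraries numbered 2) and 1 to 3 falls (fewest without treated library 1 and all libraries numbered 1).

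Chaperones rose, and stress pathways rose in part. Of 20 heat shock and chaperonin genes, 17 rose and 0 fell, with a median of 1.38, and 13 rose with no replicate block. HSP90AB1, the constitutive cytosolic HSP90, was at 669.8, 791 and 788 CPM in the untreated libraries and 3054, 2999 and 2335 CPM in the treated ones (1.89 ± 0.14, adjusted p = 4.4e-07). HSPH1, an HSP110-family exchange factor, was at 32.7, 33.2 and 24.95 CPM in the untreated libraries and 174, 133 and 84.0 CPM in the treated ones (2.04 ± 0.18, adjusted p = 1.6e-06). CCT5, a subunit of the chaperonin that folds actin and tubulin, rose by 1.76 ± 0.14. Of 23 genes of the integrated stress response, 12 rose and 1 fell (6 and 0 with no replicate block), a called share of 56.5%. The list shares SHMT2 and MTHFD2 with the one-carbon enzymes. CTH, the last enzyme of cysteine synthesis, rose from a mean of 1.90 ± 0.404 to 6.60 ± 2.64 CPM (1.76 ± 0.33, adjusted p = 0.00071). Of 18 genes of the unfolded protein response, 10 rose and 0 fell, a called share of 55.6%. With no replicate block edgeR called 0 of them (4 at an unadjusted p under 0.05). MANF, a secreted factor of endoplasmic reticulum stress, was at 87.5, 148 and 226 CPM in the untreated libraries and 239, 377 and 409 CPM in the treated ones (1.21 ± 0.16, adjusted p = 3.6e-05). Dropping libraries in turn, the integrated stress response list had 6 to 13 rises (fewest without all libraries numbered 2) and the unfolded protein response list had 6 to 11 rises. Fitted with no replicate block, MANF (adjusted p = 0.079) had an adjusted p above 0.05.

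Nuclear genes of oxidative phosphorylation rose. Of 32 tested, 23 rose and 1 fell, with a median of 0.62, and 9 rose with no replicate block. CYCS, cytochrome c, was at 72.8, 132 and 180.1 CPM in the untreated libraries and 311, 384 and 486 CPM in the treated ones (1.68 ± 0.17, adjusted p = 4.2e-06). COX5A, of cytochrome c oxidase, and UQCR10, of the bc1 complex, rose by 1.204 ± 0.16 and 0.95 ± 0.13. Of the 13 genes encoded in mitochondrial DNA, 8 rose and 0 fell, with a median of 0.69. Without the block edgeR called 0 of them (0 at an unadjusted p under 0.05), and the groups overlapped in all 13. They gave 5 of the 6 largest gains in CPM among called genes. MT-ND1, a subunit of complex I, was at 1103, 4690.3 and 4626 CPM in the untreated libraries and 2257, 10904 and 8124 CPM in the treated ones (1.02 ± 0.23, adjusted p = 0.0044). MT-ND2 was at 1132, 4854 and 4566 CPM in the untreated libraries and 1929, 9454 and 7539 CPM in the treated ones (0.82 ± 0.20, adjusted p = 0.0067). Number 1 was low in both groups, and the ratio was above 1 within each number. MT-ND4, ND5 and COX3 rose by 0.69 ± 0.23, 0.81 ± 0.21 and 0.68 ± 0.22. The mitochondrial share of exon reads moved with these values, and its part in them was not tested. When single libraries or numbers were dropped, the mitochondrially encoded genes list had 2 to 11 rises (fewest without treated library 1). The fit with no replicate block did not call MT-ND1 (adjusted p = 0.49), MT-ND2 (adjusted p = 0.58), MT-ND4 (adjusted p = 0.65), ND5 (adjusted p = 0.64) and COX3 (adjusted p = 0.65). MT-ND4 lost its call without treated library 1 (adjusted p = 0.13), untreated library 2 (0.12), treated library 2 (0.091), untreated library 3 (0.075) and all libraries numbered 1 (0.082). ND5 lost it without treated library 1 (adjusted p = 0.056) and all libraries numbered 1 (0.057). COX3 lost it without treated library 1 (adjusted p = 0.1), untreated library 2 (0.11), treated library 2 (0.081), untreated library 3 (0.095) and treated library 3 (0.056). Among the settings that keep all libraries and the block, the threshold was missed by COX3 with no filter on low counts (adjusted p = 0.082) and MT-ND4 with no filter on low counts (adjusted p = 0.1).

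Glycolytic genes changed in both directions, with 9 of 18 up and 3 down (4 and 1 with no replicate block). HK2, the hexokinase that activated lymphocytes induce, was at 6.75, 2.39 and 6.40 CPM in the untreated libraries and 43.8, 20.4 and 21.9 CPM in the treated ones (2.48 ± 0.26, adjusted p = 8.2e-06). ENO1, enolase, was at 167, 148 and 165 CPM in the untreated libraries and 463, 483 and 346 CPM in the treated ones (1.41 ± 0.13, adjusted p = 1.8e-06). SLC2A1, the glucose transporter GLUT1, and PFKP, the platelet-type phosphofructokinase, rose by 1.48 ± 0.23 and 1.21 ± 0.17. In the citric acid cycle 5 of 15 rose, among them IDH3A of isocitrate dehydrogenase (1.07 ± 0.14, adjusted p = 2.9e-05), and 0 fell (1 and 0 with no replicate block), a called share of 33.3% against 35.7% of all genes. In cholesterol synthesis 14 of 21 rose and 0 fell, with a median of 0.78, and 4 rose with no replicate block. FDFT1, squalene synthase, was at 45.7, 42.4 and 48.6 CPM in the untreated libraries and 93.5, 98.0 and 80.6 CPM in the treated ones (0.99 ± 0.13, adjusted p = 4e-05). HMGCS1, which makes the substrate of HMG-CoA reductase, was at 39.2, 15.2 and 32.0 CPM in the untreated libraries and 89.5, 54.3 and 59.5 CPM in the treated ones (1.29 ± 0.18, adjusted p = 6.6e-05). Of 17 genes of fatty acid synthesis and lipid storage, 4 rose and 3 fell (2 and 2 with no replicate block), a called share of 41.2%. FASN, fatty acid synthase, rose from a mean of 91.0 ± 36.7 to 241 ± 90.6 CPM (1.40 ± 0.22, adjusted p = 0.00045), and ACSS2, which makes acetyl-CoA from acetate, fell from a mean of 58.2 ± 16.5 to 23.2 ± 8.53 CPM (−1.34 ± 0.16, adjusted p = 1.6e-05). In the 9 fits that left out libraries, the glycolysis list had 1 to 3 falls, the citric acid cycle list had 1 to 8 rises (fewest without all libraries numbered 1), the cholesterol synthesis list had 7 to 17 rises (fewest without all libraries numbered 2) and the fatty acid synthesis and lipid storage list had 2 to 4 rises and 2 to 5 falls (fewest without untreated library 2 and all libraries numbered 2). Without pairing by a replicate block, the call was lost for HMGCS1 (adjusted p = 0.072).

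Interferon-stimulated genes fell. Of 28 tested, 25 fell and 0 rose, with a median log2 fold change of −1.27, and 20 fell with no replicate block. The groups did not overlap in 21 of the 28, against 32.0% of all genes tested. BST2, tetherin, which holds budding virus at the cell surface, was at 129, 107 and 51.0 CPM in the untreated libraries and 29.1, 35.2 and 19.2 CPM in the treated ones (−1.72 ± 0.15, adjusted p = 1e-06). OAS3, an oligoadenylate synthetase that senses double-stranded RNA (chromosome 26, 10404414 to 10423039), was at 143, 211 and 82.4 CPM in the untreated libraries and 32.9, 72.8 and 29.6 CPM in the treated ones (−1.72 ± 0.18, adjusted p = 8.9e-06). DHX58, a regulator of RNA sensing, was at 148, 166 and 94.1 CPM in the untreated libraries and 37.1, 63.3 and 40.0 CPM in the treated ones (−1.53 ± 0.15, adjusted p = 3.4e-06). In these genes every treated library was below every untreated one. MX2, an antiviral GTPase (chromosome 31, 35860590 to 35951350), and TRIM22, an antiviral ubiquitin ligase, gave 2 of the 6 largest losses in CPM. MX2 was at 663, 2558 and 713 CPM in the untreated libraries and 162, 644 and 379 CPM in the treated ones (−1.68 ± 0.23, adjusted p = 0.00022) and TRIM22 at 1518, 1068 and 477 CPM in the untreated libraries and 313, 355 and 224 CPM in the treated ones (−1.68 ± 0.34, adjusted p = 0.0052). PARP9, a protein gene of the same list, fell, with a log2 fold change of −1.70 ± 0.19. These falls stood beside the rise of IFNG given above. Taking out the replicate block moved the adjusted p past 0.05 for MX2 (adjusted p = 0.12). The threshold was missed by TRIM22 without all libraries numbered 2 (adjusted p = 0.077).

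**Figure D3:**
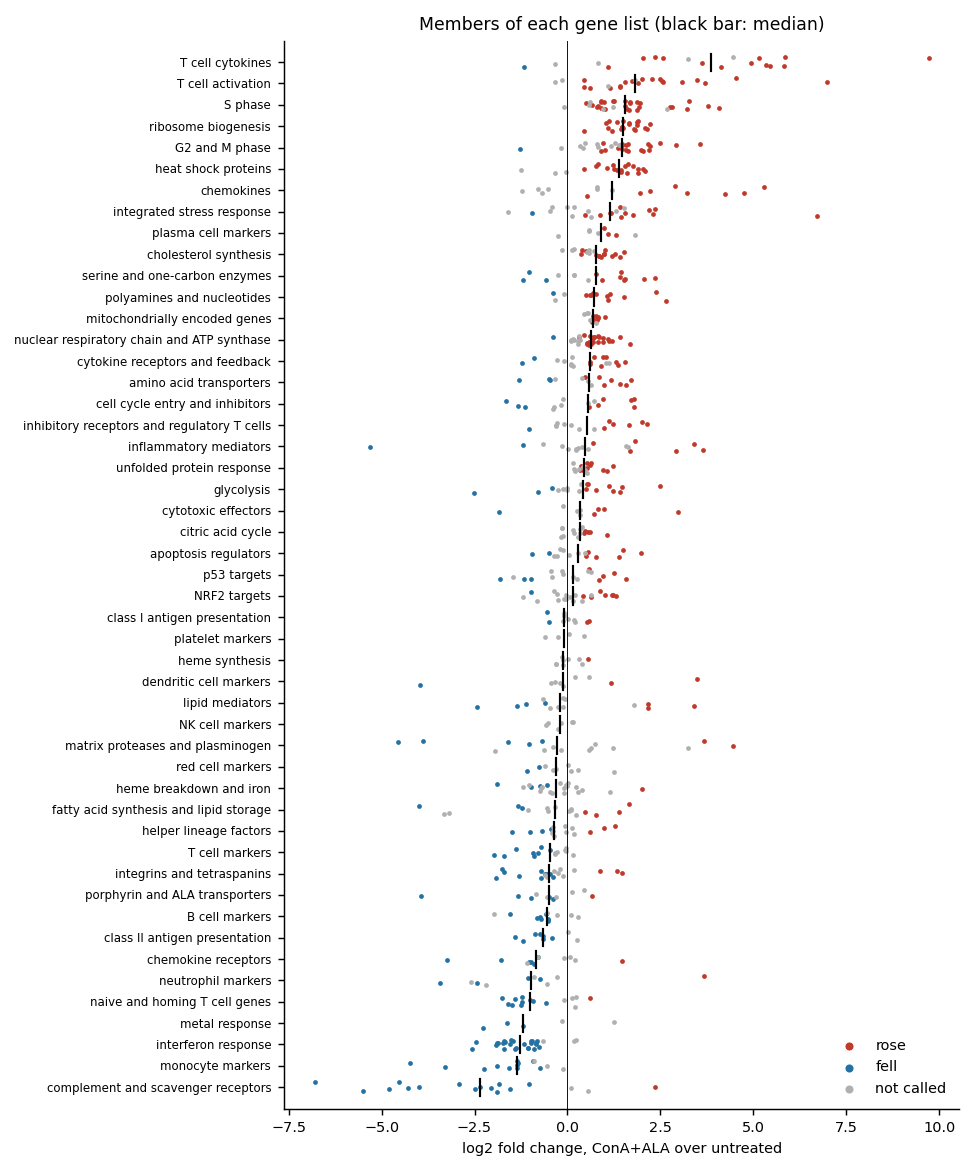
Log2 fold change of ConA with ALA over untreated cells (x axis) for each tested member of the 49 gene lists (y axis, ordered by median, black bar). Red members rose, blue fell and grey were not called, and T cell cytokines lie at the top while interferon response, monocyte markers and the complement and scavenger receptor list lie at the bottom.

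Genes of macrophages and monocytes fell. Of 17 complement and scavenger receptor genes, 14 fell and 1 rose, with a median of −2.36, and 7 fell with no replicate block. C1QA, C1QB and C1QC, the chains of complement C1q, which macrophages make, lie side by side on chromosome 2 between 76650586 and 76670977. C1QA was at 44.0, 101 and 37.0 CPM in the untreated libraries and 2.68, 3.89 and 1.56 CPM in the treated ones (−4.53 ± 0.41, adjusted p = 1.9e-05). C1QB was at 11.4, 8.92 and 5.18 CPM in the untreated libraries and 0.432, 0 and 0.184 CPM in the treated ones (−5.504 ± 0.64, adjusted p = 1.3e-05). C1QC was at 20.8, 24.0 and 6.92 CPM in the untreated libraries and 0.0863, 0.449 and 0 CPM in the treated ones (−6.80 ± 0.96, adjusted p = 0.00056). C1QB and C1QC were below 1 CPM in treated cells of every number. Scavenger receptors also fell, with MARCO at −2.36 ± 0.27, MSR1 at −1.85 ± 0.26 and the hemoglobin receptor CD163 at −1.88 ± 0.49. Of 14 monocyte markers tested, 11 fell and 0 rose (2 down with no replicate block). The sum of the 15 markers in the files went from 1864, 1229.6 and 925 to 1153, 514 and 391 CPM, and FCN1 had no reads in either group. CSF1R, the receptor for macrophage colony-stimulating factor, was at 203, 81.4 and 87.3 CPM in the untreated libraries and 53.03, 15.0 and 17.1 CPM in the treated ones (−2.26 ± 0.26, adjusted p = 6.6e-05). CLEC7A, dectin-1, was at 5.81, 5.30 and 2.09 CPM in the untreated libraries and 0.518, 0.150 and 0 CPM in the treated ones (−4.23 ± 0.62, adjusted p = 9.7e-05). FCGR1A, the high-affinity IgG receptor, was at 25.9, 52.9 and 61.9 CPM in the untreated libraries and 40.2, 28.0 and 66.4 CPM in the treated ones, with overlapping groups (−0.11 ± 0.30, adjusted p = 0.8). In bulk RNA, fewer cells of a type and less RNA per cell cannot be told apart. Dropping libraries in turn, the monocyte markers list had 5 to 11 falls (fewest without all libraries numbered 2). Calls lost with no replicate block were those of MARCO (adjusted p = 0.18), MSR1 (adjusted p = 0.17), CD163 (adjusted p = 0.56) and CSF1R (adjusted p = 0.11). Dropping libraries in turn took CD163 without treated library 1 (adjusted p = 0.06), untreated library 2 (0.088), treated library 2 (0.068), untreated library 3 (0.073), treated library 3 (0.081), all libraries numbered 2 (0.14) and all libraries numbered 3 (0.2) past 0.05. Among the settings that keep all libraries and the block, the threshold was missed by CD163 in the fit to the compared groups (adjusted p = 0.072).

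Other genes of myeloid cells and of antigen presentation moved beside these markers. SPP1, osteopontin (chromosome 32, 11353953 to 11362069), was at 1003, 455 and 178 CPM in the untreated libraries and 21.7, 17.4 and 16.8 CPM in the treated ones (−4.56 ± 0.65, adjusted p = 0.0019), and FN1, fibronectin, at 553, 107 and 32.9 CPM in the untreated libraries and 20.9, 7.70 and 4.78 CPM in the treated ones (−3.89 ± 0.72, adjusted p = 0.0065). Of 16 matrix and plasminogen genes, 2 rose and 5 fell (0 and 1 with no replicate block), a called share of 43.8% against 35.7% of all genes. Class II antigen presentation fell in 7 of 9 genes, with a median of −0.66, against 1 with no replicate block. DLA-DRA, the alpha chain of the class II molecule DR, was at 2044, 2078 and 1654 CPM in the untreated libraries and 1277, 1396 and 1026 CPM in the treated ones (−0.65 ± 0.13, adjusted p = 0.0011). CIITA, the master regulator of class II genes, fell from a mean of 231 ± 35.5 to 141 ± 41.4 CPM (−0.74 ± 0.14, adjusted p = 0.00095). CTSS, the protease that trims the invariant chain, was at 1919.7, 2251 and 1778 CPM in the untreated libraries and 1169.9, 616 and 613 CPM in the treated ones (−1.42 ± 0.38, adjusted p = 0.021). Of class I genes, a share of 36.4% was called, near the 35.7% of all genes, with 2 up and 2 down of 11 (0 and 0 with no replicate block). Of 14 lipid mediator genes, 3 rose and 4 fell (1 and 0 with no replicate block). ALOX5AP, which hands arachidonic acid to 5-lipoxygenase, fell (−1.35 ± 0.32, adjusted p = 0.0042). Of 20 integrins and tetraspanins, 3 rose and 10 fell (3 and 4 with no replicate block). ICAM1, the ligand of LFA-1, rose by 1.46 ± 0.22, and ITGA5, the alpha chain of the fibronectin receptor, fell, with a log2 fold change of −1.76 ± 0.15. ARHGAP45, a gene expressed in blood cells, had one of the 6 largest losses in CPM, at 1742, 1825 and 1613 CPM in the untreated libraries and 672, 744 and 598 CPM in the treated ones (−1.37 ± 0.13, adjusted p = 2.9e-06). Beside these results the summed monocyte markers were lower in 3 of 3 treated libraries, and the part of that in them was not tested. When single libraries or numbers were dropped, the matrix proteases and plasminogen list had 0 to 2 rises and 1 to 6 falls (fewest without all libraries numbered 2), the class II antigen presentation list had 4 to 7 falls, the class I antigen presentation list had 1 to 2 rises (fewest without treated library 1 and all libraries numbered 1) and 1 to 2 falls (fewest without all libraries numbered 2), the lipid mediators list had 1 to 3 rises and 1 to 3 falls (fewest without treated library 2 and all libraries numbered 2) and the integrins and tetraspanins list had 6 to 9 falls (fewest without all libraries numbered 1 and all libraries numbered 2). In the fit with no replicate block, FN1 (adjusted p = 0.0501), DLA-DRA (adjusted p = 0.14), CIITA (adjusted p = 0.1), CTSS (adjusted p = 0.11) and ALOX5AP (adjusted p = 0.072) missed the threshold. SPP1 lost its call without all libraries numbered 2 (adjusted p = 0.069). FN1 lost it without all libraries numbered 2 (adjusted p = 0.12). CTSS lost it without treated library 1 (adjusted p = 0.067), untreated library 2 (0.067), treated library 2 (0.083), untreated library 3 (0.08) and all libraries numbered 2 (0.18). Under another setting with all libraries and the block, the adjusted p was above 0.05 for CTSS with no filter on low counts (adjusted p = 0.058).

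Markers of the other blood cells moved in both directions. Summed T cell markers went from 2955, 2433 and 1945 to 1983, 1718 and 1407 CPM, lower in the treated library of each number, and of 15 tested 8 fell and 0 rose (2 down with no replicate block). CD7, a receptor of resting T cells, was at 91.0, 106 and 93.3 CPM in the untreated libraries and 22.4, 24.5 and 26.8 CPM in the treated ones (−1.98 ± 0.15, adjusted p = 4.4e-07), and CD5, an antigen receptor attenuator, fell from a mean of 237 ± 33.5 to 125 ± 19.96 CPM (−0.93 ± 0.12, adjusted p = 3.6e-05). CD3D and CD3E, core chains of the T cell receptor complex, were not called (−0.05 and −0.07, adjusted p = 0.83 and 0.7). Summed B cell markers spanned 1690.3 to 3103 CPM in untreated and 1904 to 2911 CPM in treated cells, and 8 of 13 fell (1 with no replicate block). BLK, a kinase of B cells, fell from a mean of 13.9 ± 2.53 to 4.94 ± 1.61 CPM (−1.53 ± 0.29, adjusted p = 0.00077). Summed plasma cell markers went from 305, 519.8 and 2897 to 942, 1463 and 4169 CPM, with 3 of 8 up and 0 with no replicate block (0 at an unadjusted p under 0.05), a called share of 37.5% against 35.7% of all genes. The largest log2 fold change of that list, 1.81, was of a gene that the T cell activation list also holds. TNFRSF17, the receptor BCMA of plasma cells, rose within numbers while its groups overlapped (1.10 ± 0.24, adjusted p = 0.0029). Of 6 NK cell markers and 4 platelet markers, 0 were called by edgeR, DESeq2 or limma-voom, and 2 and 0 had an unadjusted p under 0.05. Dendritic cell markers summed to 438 to 483 and 660.2 to 774 CPM, but of the 9 tested 2 rose and 1 fell (1 and 0 with no replicate block). That was a called share of 33.3% against 35.7% of all genes, with a median of −0.12. BATF3, which activated T cells also express, rose (3.49 ± 0.32, adjusted p = 4.2e-05). FSCN1, an actin-bundling protein gene, was at 72.2, 124 and 229 CPM in the untreated libraries and 279, 325 and 287 CPM in the treated ones (1.17 ± 0.27, adjusted p = 0.0071). The lectin CD209 fell (−3.96 ± 0.43, adjusted p = 0.00015). The defining marker XCR1 had 17 reads in the untreated libraries together and 0 in the treated ones. Neutrophil markers summed to 293 to 436 and 714 to 2411 CPM, and the protease MMP9, which macrophages also make, was the marker that rose, at 18.9, 60.1 and 314 CPM in the untreated libraries and 784, 569.8 and 2324 CPM in the treated ones (3.67 ± 0.91, adjusted p = 0.022, 0.15 with no replicate block, and up to 0.18 where libraries were left out, in 7 of 9 such fits above 0.05). In each number MMP9 gained more CPM than the sum did, so the other neutrophil markers together were lower after treatment. Of the 10 tested, 1 rose and 4 fell (0 and 1 with no replicate block), with a median of −0.99. CSF3R, the G-CSF receptor, fell from a mean of 3.37 ± 0.556 to 0.631 ± 0.0918 CPM (−2.43 ± 0.51, adjusted p = 0.0019). CXCR2, a defining marker, had 10 reads in the untreated libraries together and 0 in the treated ones. Red cell markers summed to 163 to 312 and 81.0 to 394 CPM, and 2 of 9 fell (0 with no replicate block, 1 at an unadjusted p under 0.05), a called share of 22.2%. In the 9 fits that left out libraries, the B cell markers list had 1 to 9 falls (fewest without all libraries numbered 2), the plasma cell markers list had 2 to 6 rises, the neutrophil markers list had 3 to 7 falls and the red cell markers list had 0 to 2 falls. Fitted with no replicate block, TNFRSF17 (adjusted p = 0.73), FSCN1 (adjusted p = 0.065) and CD209 (adjusted p = 0.063) had an adjusted p above 0.05. Leaving out libraries ended the call of FSCN1 without all libraries numbered 2 (adjusted p = 0.086).

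**Figure D4:**
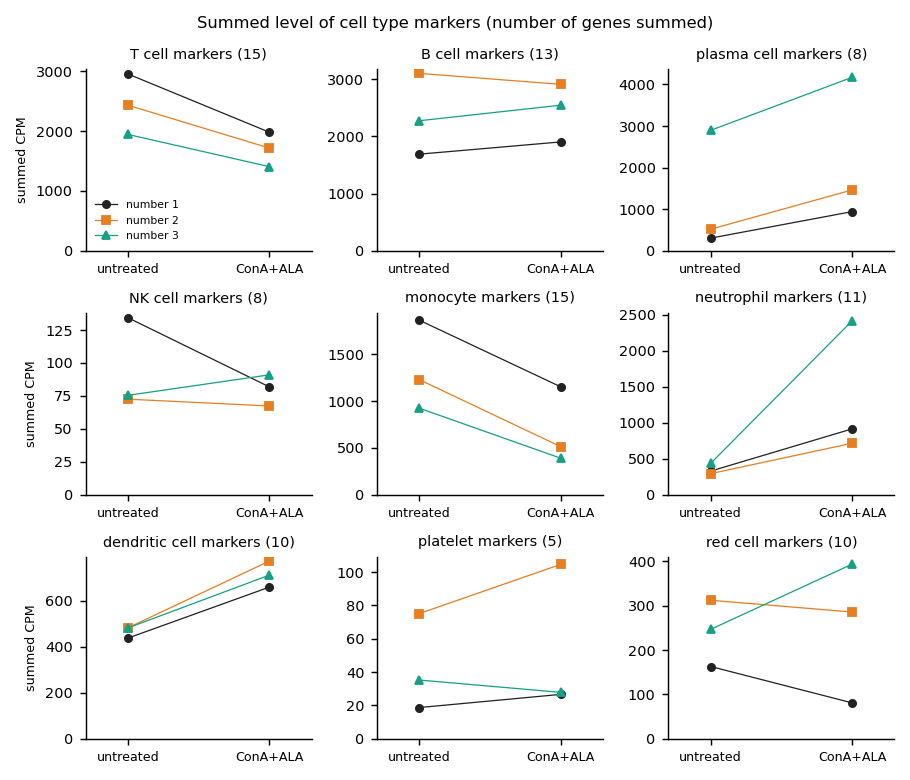
Summed level in CPM (y axis, from 0, a scale per panel) of the markers of 9 blood cell types in the untreated and ConA with ALA libraries, with a line joining the libraries of each number and the number of genes summed in parentheses. T cell and monocyte sums fall and plasma cell, dendritic cell and neutrophil sums rise along all 3 lines, while the other panels hold lines of both directions. Of the dendritic cell markers tested, 2 rose and 1 fell. The neutrophil rise rests on MMP9, without which those sums fall.

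Few genes of heme synthesis, the pathway that ALA enters, were called. Of 9 heme synthesis genes tested, 1 rose and 0 fell, a share of 11.1% against 35.7% of all genes, with a median of −0.11 and 0 called with no replicate block. Unadjusted p was under 0.05 for 2 of them with the block and 0 without it, and DESeq2 and limma-voom each called 1. ALAS1, which makes ALA in most cells, was at 324, 701 and 1534 CPM in the untreated libraries and 533, 643 and 667 CPM in the treated ones (−0.31 ± 0.37, adjusted p = 0.56). The level was higher after treatment in number 1 and lower in numbers 2 and 3, most so in number 3. FECH, ferrochelatase, which puts iron into protoporphyrin, was at 20.4, 11.4 and 13.1 CPM in the untreated libraries and 15.9, 10.2 and 13.9 CPM in the treated ones (−0.15 ± 0.20, adjusted p = 0.58). The called gene was UROD, uroporphyrinogen decarboxylase, at 34.4, 41.5 and 65.1 CPM in the untreated libraries and 55.3, 70.5 and 76.6 CPM in the treated ones (0.56 ± 0.16, adjusted p = 0.012). HMOX1 was at 202, 177 and 60.8 CPM in the untreated libraries and 44.7, 59.2 and 69.5 CPM in the treated ones (−1.201 ± 0.58, adjusted p = 0.16), with the level lower after treatment in numbers 1 and 2 and higher in number 3. HMOX1 is also a gene of monocytes and macrophages, whose summed markers were lower in each number, and their part in its value was not tested. Of 22 genes of heme breakdown and iron, 1 rose and 4 fell (1 and 0 with no replicate block), a called share of 22.7%, and the gene that rose was TFRC. Of 11 transporters of porphyrins and ALA, 1 rose and 5 fell, a called share of 54.5% against 35.7% of all genes. With no replicate block 0 rose and 1 fell of the 11, a share below the 11.3% of all genes called in that fit. SLC15A1, the peptide transporter PEPT1, which also carries ALA, fell from a mean of 2.09 ± 0.853 to 0.115 ± 0.199 CPM (−3.93 ± 0.77, adjusted p = 0.0015). ABCG2, which exports porphyrins, fell from a mean of 10.6 ± 4.54 to 4.38 ± 2.15 CPM (−1.34 ± 0.34, adjusted p = 0.0067). Over the 9 leave-out fits the heme breakdown and iron list had 0 to 6 falls (fewest without treated library 1 and all libraries numbered 2) and the porphyrin and ALA transporters list had 1 to 5 falls (fewest without all libraries numbered 1). The fit with no replicate block did not call UROD (adjusted p = 0.29) and ABCG2 (adjusted p = 0.17). UROD lost its call without treated library 1 (adjusted p = 0.065), untreated library 2 (0.068), treated library 2 (0.052), all libraries numbered 1 (0.085) and all libraries numbered 2 (0.072). ABCG2 lost it without treated library 1 (adjusted p = 0.06), all libraries numbered 1 (0.1) and all libraries numbered 2 (0.1).

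Targets of NRF2, the factor that answers oxidative stress, were called at 38.1%, near the 35.7% of all genes, with 7 of 21 up and 1 down, with a median of 0.14 (3 and 0 with no replicate block). PRDX1, a peroxidase, was at 243, 467 and 459 CPM in the untreated libraries and 647, 1101 and 1089 CPM in the treated ones (1.298 ± 0.12, adjusted p = 1.9e-06). TXNRD1, thioredoxin reductase, was at 132, 95.8 and 174 CPM in the untreated libraries and 341, 240.5 and 324 CPM in the treated ones (1.19 ± 0.14, adjusted p = 1.7e-05). Neither gene overlapped between groups, whereas HMOX1 of the same list was not called. Of 17 p53 targets, 5 rose and 3 fell (1 and 2 with no replicate block), a called share of 47.1%. MDM2, the ubiquitin ligase of p53, rose by 0.85 ± 0.14, and SESN1, a stress-induced inhibitor of mTORC1, fell, with a log2 fold change of −1.17 ± 0.17. Of 15 apoptosis regulators, 6 rose and 2 fell (3 and 0 with no replicate block), a called share of 53.3%. The survival genes BCL2L1, BCL2A1 and BIRC3 rose by 1.499 ± 0.25, 1.38 ± 0.21 and 1.96 ± 0.28. Of 5 metal response genes, 3 fell, among them SLC39A8, a zinc importer (−2.26 ± 0.42, adjusted p = 0.001), and edgeR called 0 with no replicate block (3 at an unadjusted p under 0.05). Dropping libraries in turn, the p53 targets list had 3 to 5 rises (fewest without all libraries numbered 1 and all libraries numbered 2) and 1 to 2 falls, the apoptosis regulators list had 0 to 2 falls (fewest without all libraries numbered 2) and the metal response list had 1 to 3 falls (fewest without all libraries numbered 2). Without pairing by a replicate block, the call was lost for SLC39A8 (adjusted p = 0.051).

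Cells with both reagents were also set against those with ALA alone and those with ConA alone. All these comparisons share the libraries with both reagents, so their counts are given side by side and not correlated. Against ALA alone, cells with both reagents had 4022 genes called (30.1%), 2109 up and 1913 down, and 1085 (8.12%) with no replicate block, 680 up (5.09%) and 405 down (3.03%). Log2 fold changes of the treatment over ALA alone were 3.65 ± 0.21 for LTA, 5.25 ± 0.55 for IFNG, 1.89 ± 0.15 for MCM6, −2.11 ± 0.15 for BST2 and −3.36 ± 0.40 for C1QA (adjusted p = 5.2e-07, 0.00026, 1.1e-06, 6.3e-07 and 0.00015). Against ALA alone the interferon list had 25 falls and 1 rise of 28, and the S phase list 28 rises of 33. Some other lists had fewer calls than against untreated cells, and some had more. The G2 and M phase list had 4 rises against ALA alone with a median of 0.48, beside 19 against untreated cells. The unfolded protein response had 3 rises beside 10, mitochondrially encoded genes 4 beside 8 and inflammatory mediators 3 beside 6. Among the lists with more calls, heme breakdown and iron had 1 rise and 9 falls against ALA alone, beside 1 and 4 against untreated cells. The citric acid cycle list had 7 rises beside 5. NRF2 targets had 4 rises and 4 falls against ALA alone, with a median of −0.44. Whether these counts differ between the comparisons was not tested. HMOX1 had 195, 255 and 98.4 CPM with ALA alone, and its difference between both reagents and ALA alone was not called (−1.56 ± 0.58, adjusted p = 0.09).

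Few genes were called against ConA alone. They numbered 74 (0.554% of 13358), with 45 higher and 29 lower with both reagents, and 1311 had an unadjusted p under 0.05. In the fit with no replicate block edgeR called 0 genes, and 445 had an unadjusted p under 0.05. With the block DESeq2 called 305 and limma-voom 150, and edgeR between 7 and 97 when libraries were left out, the lowest without all libraries numbered 2. Medians of the 49 lists against ConA alone ran from −0.59 for the metal response, with 0 of 5 called, to 1.22 for neutrophil markers, with 1 of 10 higher. The red cell marker median was 0.88 with 0 of 9 called, and that of chemokines 0.74 with 2 of 15 higher. The interferon and S phase lists had medians of 0.41 and −0.51, with 0 of 28 and 0 of 33 called. ALAS1 had 1709, 2405 and 2139 CPM with ConA alone against 533, 643 and 667 CPM with both, and the difference was not called (−1.76 ± 0.37, adjusted p = 0.12).

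PLA2G5, a secreted phospholipase A2 (chromosome 2, 78762852 to 78781983), was the gene of the 16 named from this comparison whose call held in all 9 fits that left out libraries. Its level was 119, 45.7 and 19.1 CPM with ConA alone, 2.93, 0.897 and 0.735 CPM with both, 0.360, 0.194 and 0.407 CPM in untreated cells and 0.331, 0.523 and 0.155 CPM with ALA alone (−5.22 ± 0.38 against ConA alone, adjusted p = 4.5e-05). It was high in every library with ConA alone and lower in all others, where every library with both reagents still lay above every untreated one. CD9, a tetraspanin, was at 22.6, 11.2 and 11.3 CPM with ConA alone and 107, 57.4 and 43.6 CPM with both (2.21 ± 0.25, adjusted p = 0.0032), against 28.8, 20.7 and 30.4 CPM in untreated cells. CCL3 was at 134, 108 and 80.7 CPM with ConA alone and 453, 387 and 404 CPM with both (1.95 ± 0.24, adjusted p = 0.0068). For both genes the libraries with both reagents lay above those of the other 3 groups. SERPINE2, a protease inhibitor, was at 1.23, 0.555 and 0.782 CPM with ConA alone and 24.2, 7.55 and 8.27 CPM with both (3.86 ± 0.56, adjusted p = 0.0091). Adjusted p with no replicate block was 0.069 for PLA2G5, 0.22 for CD9, 0.069 for CCL3 and 0.16 for SERPINE2. The call of CD9 was lost without all libraries numbered 2 (adjusted p = 0.12). CCL3 lost its call without ConA library 2 (adjusted p = 0.06) and without all libraries numbered 2 (0.089). SERPINE2 lost its call without ConA library 1 (adjusted p = 0.11) or 2 (0.065), treated library 1 (0.063) or all libraries numbered 1 (0.075).

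By fitted log2 fold change, IL18, IDO2, FCGR1A and PPIC lay closer to untreated cells with both reagents than with ConA alone, and ABCG1, C1RL, C1QB and CLEC4G lay further from them. IL18, a cytokine that induces IFNG, was at 79.0, 58.7 and 69.0 CPM with ConA alone, 20.8, 13.6 and 16.5 CPM with both and 25.02, 24.2 and 28.1 CPM in untreated cells (−2.04 ± 0.34 against ConA alone, adjusted p = 0.032). IDO2, a tryptophan-degrading enzyme, was at 18.9, 6.98 and 15.8 CPM with ConA alone, 2.03, 1.42 and 1.29 CPM with both and 0.585, 1.75 and 2.44 CPM in untreated cells (−3.05 ± 0.47, adjusted p = 0.0091). FCGR1A was at 7.55, 7.93 and 12.9 CPM with ConA alone, 40.2, 28.0 and 66.4 CPM with both and 25.9, 52.9 and 61.9 CPM in untreated cells (2.22 ± 0.32, adjusted p = 0.017). PPIC, a cyclophilin, was at 0.385, 0.555 and 1.42 CPM with ConA alone, 3.80, 8.82 and 4.50 CPM with both and 0.720, 5.17 and 5.18 CPM in untreated cells (2.91 ± 0.52, adjusted p = 0.017). IL18 and IDO2 were higher in the ConA libraries, and FCGR1A and PPIC lower there. GPAT3, a lipid synthesis enzyme, BCHE, butyrylcholinesterase, and PTHLH, parathyroid hormone-like hormone, were higher with both reagents than with ConA alone, by 3.15 ± 0.58, 2.16 ± 0.46 and 1.84 ± 0.31. The lipid exporter ABCG1, C1RL, C1QB and the lectin CLEC4G were lower, at −1.89 ± 0.36, −2.09 ± 0.40, −3.60 ± 0.64 and −3.76 ± 0.78. ABCG1 was at 17.8, 6.98 and 8.10 CPM with ConA alone, 4.75, 1.35 and 2.85 CPM with both and 4.82, 5.37 and 8.78 CPM in untreated cells. C1RL was at 8.90, 11.6 and 7.82 CPM with ConA alone, 2.98, 2.09 and 1.65 CPM with both and 5.31, 7.18 and 7.56 CPM in untreated cells. CLEC4G was at 7.74, 4.12 and 0.711 CPM with ConA alone, 0.432, 0.374 and 0 CPM with both and 0.990, 2.59 and 1.34 CPM in untreated cells. For these 3 and for C1QB every library with both reagents lay below every untreated library and every library with ConA alone. PLA2G2F, another secreted phospholipase A2, had 1 read in the 3 libraries with both reagents. Every one of these 12 calls was lost in at least 5 of the 9 fits that left out libraries, with an adjusted p of up to 0.53 for IL18 and 0.17 for GPAT3, and all were lost with no replicate block.

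**Figure D5:**
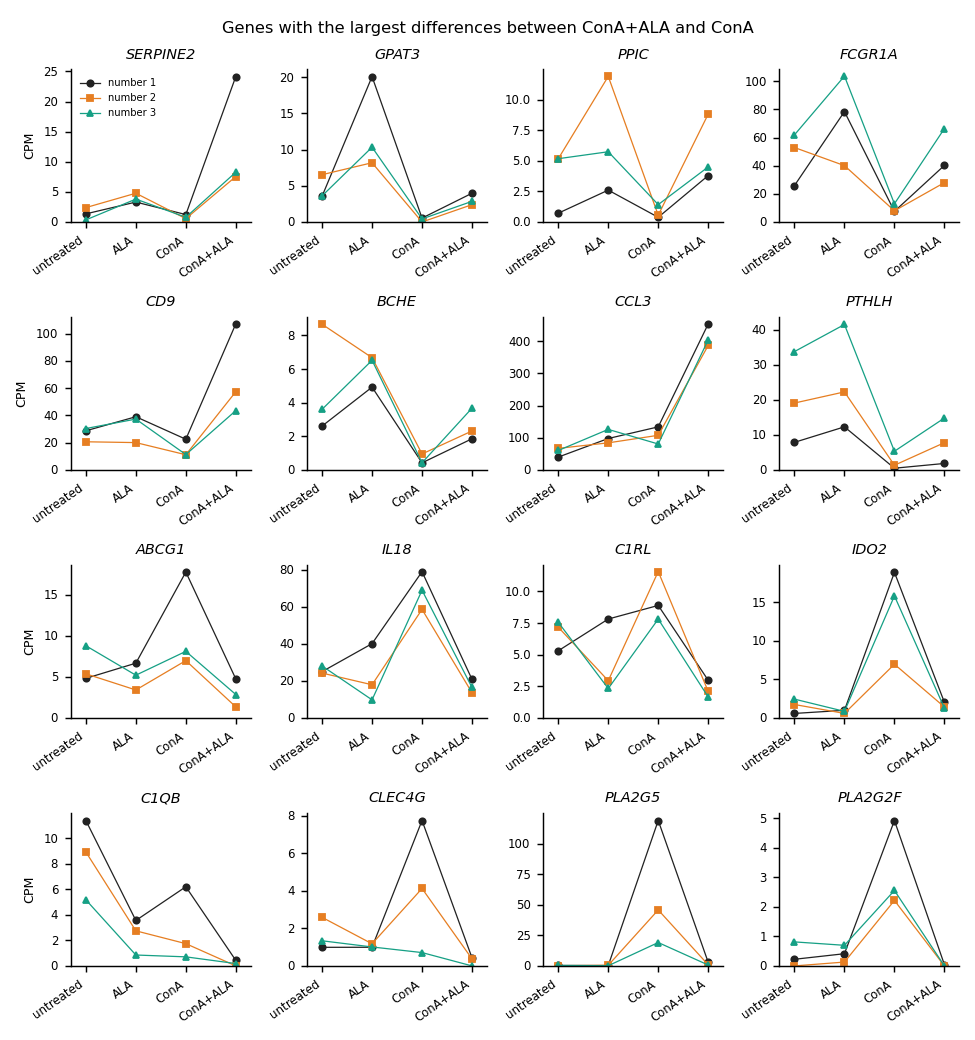
Level in CPM (y axis, from 0, a scale per panel) of the 16 genes with the largest differences between ConA with ALA and ConA alone, in the 4 groups, with a line joining the libraries of each number. PLA2G5, IL18 and IDO2 peak in the ConA libraries, CD9 and CCL3 in those with both reagents, and FCGR1A, PPIC and GPAT3 dip in the ConA libraries.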

How the data were processed

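Poly(A) RNA of 12 libraries was sequenced by the submitters, and 1 table per library was deposited. Per the file headers, the authors' values are counts (total, unique and intron reads per gene, with no normalization) and TPM and RPKM, the authors' own normalizations per transcript length. Per the submitters' processing notes the build is CanFam 3.1 and the tool bcl2fastq. The sources used here do not give the aligner, the counter or the use of strand in counting, so reads of genes that overlap on opposite strands cannot be told apart. Deposited total exon counts were tested, TPM was used only for levels between genes, and RPKM was not used. Of 29822 genes, 17892 carry a symbol.

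Groups and numbers came from the titles. Counts of all 12 libraries were fitted with edgeR 4.0.16 in R 4.3.3 (TMM scaling, filterByExpr, robust quasi-likelihood F-test) with 4 group means and the number as a block, which left 6 residual degrees of freedom. The threshold was a Benjamini-Hochberg adjusted p of 0.05 over 13358 genes. The block was kept because same-numbered libraries deviated together from their group means, with correlations of 0.376 to 0.748 in 18 of 18 pairs, all above 0.1, against −0.498 to 0.206 in other pairs of different groups. A group with 0 reads was set against a floor of 3 reads over the group, and ratios from 1 to 3 reads carry 95% intervals, both for counting error only. The script was tested on simulated data.

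The comparison, its lists (49 lists, 905 entries, 97 of them not matched in the files) and its tests were chosen with earlier results of these data known. The text draws its genes from the 12 largest rises and 12 largest falls (at least 20 reads on average in the higher group, 1 direction in all numbers), the 6 largest gains and losses in CPM, up to 4 members of each list by smallest p, 12 genes taken whatever their result (those of the plot of fixed genes), and the 8 largest rises and falls against ConA alone, 240 genes in all. The genes ranked against ConA alone were called there, with a symbol and at least 20 reads on average in the higher group. CD3D, CD3E, FCN1, XCR1, CXCR2 and MMP9 were named as markers after their values were seen. Exon reads came from more than 1 gene for NPM1, FADS1, ICAM3, AKR1B1 and FDPS, which are not described for that reason. Results for a few other genes are not reported here.

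Alternatives were no replicate block, DESeq2 1.42.0, limma-voom (limma 3.58.1), size factors of DESeq2, no expression filter or one at a mean of 50 reads, unique exon reads, total gene reads, the fit without mitochondrial and hemoglobin genes, a fit to the compared groups, and fits that drop single libraries or numbers. The fits with no replicate block that also left out a number, and the sign-flip test of library measures, were added after seeing the data. Figures and tables used Python 3.11.15, numpy 2.4.6, pandas 2.3.3, scipy 1.17.1 and matplotlib 3.10.9.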

Additional observations from a re-analysis of the deposited data

How the results depend on the processing

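With no replicate block the comparison with untreated cells called 1512 genes (870 up, 642 down), that with ALA alone 1085 (680 and 405) and that with ConA alone 0 (0 and 0). Biological coefficients of variation were 0.217 with the block and 0.422 without it. With no block and without number 1, 2 or 3, the calls against untreated cells were 1472, 0 and 347 (896, 0 and 240 up, 576, 0 and 107 down). With the block and each library or number left out, they ranged from 2893 to 4449 (1559 to 2367 up, 1316 to 2091 down). The same fits gave 2096 to 3908 calls against ALA alone (1210 to 2102 up, 785 to 1812 down) and 7 to 97 against ConA alone (4 to 59 up, 3 to 38 down). The count against ConA alone was 426 with the compared groups only (223 up, 203 down), 120 with no filter (72 and 48), 119 on total gene reads (74 and 45), 150 by limma-voom (83 and 67) and 305 by DESeq2 (171 and 134). The cause of these differences was not tested, beyond the fewer samples of the fits that left some out.

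Of the 240 genes chosen for naming, 214 were called against untreated cells, of which 129 were also called with no replicate block and 160 in all 9 fits that left out libraries. Among them APOC1 reversed with its call, to 0.46 on total gene reads. The other reversals were of genes not called. With the lowest and highest log2 fold change over the fits that left out libraries, they were ALAS1 (−0.72 to 0.28), ALAS2 (−0.74 to 0.21), EOMES (−0.012 to 0.46), FCGR1A (−0.45 to 0.38), GPAT3 (−1.09 to 0.051), IDO2 (−0.62 to 0.54), ITGA2B (−0.21 to 0.26), KLRK1 (−0.47 to 0.17) and TUBB1 (−0.99 to 0.38). On total gene reads EOMES was −0.0025, FECH 0.060, ITGA2B −0.043 and IDO2 −0.69. With no replicate block ITGA2B was −0.052. With no block and a number left out, ALAS1 was 0.20, ALAS2 0.17 and 0.072, EOMES −0.078 and −0.10, FCGR1A 0.31, IDO2 −0.61, IL6 −0.035, ITGA2B −0.19 and −0.067, KLRK1 0.24 and TUBB1 0.20. List medians near 0 also changed sign, over the same fits from −0.10 to 0.20 for heme synthesis, −0.49 to 0.19 for fatty acid synthesis and lipid storage, −0.13 to 0.085 for class I presentation, −0.48 to 0.28 for NK markers, −0.36 to 0.17 for dendritic cell markers, −0.35 to 0.10 for platelet markers and −0.355 to 0.48 for red cell markers. With no block and a number left out the medians were 0.20 for heme synthesis, 0.24 for NK markers and 0.063 for dendritic cell markers, and with a mean of at least 50 reads 0.22 for platelet markers. With mitochondrial and hemoglobin genes left out there is no value for mitochondrially encoded genes. Size factors, unique reads and the stricter filter changed no call among the chosen genes they could test.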
